A study of Mus musculus with 6 samples.

Results

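FACIT collagens (fibril-associated collagens with interrupted triple helices) were examined through the accessible chromatin around the 9 genes Col9a1, Col9a2, Col9a3, Col12a1, Col14a1, Col16a1, Col19a1, Col20a1 and Col22a1. The assay was ATAC-seq: the transposase Tn5 cuts open DNA and tags it with adapters, so that sequenced fragments pile up where chromatin is accessible. The cells were cultured fibroblasts from mouse dermis, the layer of skin rich in collagen, which the labels enter under cell line. Wildtype cells (WT, 3 libraries) were compared with cells of the genotype Lap2alpha KO (KO, 3 libraries), and the study's title asks how chromatin and A-type lamins are redistributed when the protein is lost. Lap2alpha, a product of the gene Tmpo, is found in the nuclear interior and binds A-type lamins there. No other allele, agent, age or time is given for either group, and no label says whether the 3 libraries of a group came from separate animals or cultures.

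A peak was counted at a gene when its summit lay in the RefSeq GRCm38 span of the gene or within 50 kb of either end. The 9 windows held 126 of 106132 WT peaks and 125 of 98072 KO peaks. Peaks sharing 1 bp or more with a peak of the opposite list are called shared, and the rest WT-only or KO-only. Each genotype had 1 list for its 3 libraries together, so there was no spread between replicates and no difference below was tested. The genes were chosen with the counts at Col22a1 known, so these counts describe the lists. Signal is given as a percentile within its own list (the percent of that list's peaks with the same or a lower signal). The depth of the libraries was unknown, and a peak called in 1 list may lie just under the threshold of the other. The last peak inside the 50 kb limit was a WT peak 49.8 kb from Col12a1 at percentile 54.4. The first one outside was a KO peak 50.1 kb from Col22a1 at percentile 25.8.

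FACIT collagens do not form fibrils by themselves. They sit on the surface of fibrils built from types I and II collagen, with short triple-helical stretches held apart by flexible non-collagenous domains that reach into the surrounding matrix. In skin, types XII and XIV decorate the type I fibrils of the dermis, whereas type IX is a cartilage collagen and type XXII is known from tissue junctions such as that between muscle and tendon.

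The fibroblast label was checked at gene ends, since no expression was measured in these libraries. A peak within 1 kb of a gene end was found in both lists for 12 of 13 dermal fibroblast markers, with Lum lacking one, against 56.1% of all protein-coding genes. Cartilage markers had such a peak at 3 of 10 genes in WT and 2 of 10 in KO, and Acan, Matn1 and Col11a2 had none. Tendon and muscle-tendon junction markers had one at 5 of 6 genes in both lists, Tnmd being the exception. Skeletal muscle markers had one at 2 of 6 genes in both lists, with none at Myod1, Myog or Pax7. For keratinocytes the numbers were 3 of 6 in WT and 2 of 6 in KO, with none at Krt5, for leukocytes 2 of 5 and 3 of 5, with none at Ptprc, for endothelium 2 of 5 in both, with none at Pecam1, and for glia and melanocytes 3 of 6 in both, with none at Sox10. Several of these small lists had shares near that of all genes. An open gene end is not expression, and the part of other cell types in the results below was not tested.

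Accessible regions at the FACIT genes were mostly shared, and most of those that were not lay at Col22a1, Col14a1, Col16a1 and Col19a1. Over the 9 windows, 29 WT peaks were WT-only (23.0%, against 20.4% of all WT peaks) and 27 KO peaks were KO-only (21.6%, against 13.4% of all KO peaks). Col22a1 alone held 16 of the 27 KO-only peaks. Without it, 11 of 98 KO peaks were KO-only (11.2%). Without Col22a1, Col9a1 and Col19a1, the remaining 6 genes held 12 WT-only and 11 KO-only peaks among 92 peaks in each list. Of all members, Col22a1 and Col19a1 had the largest differences, KO-only minus WT-only (10 and -10), so these counts describe a selected remainder. Its shares were 13.04% WT-only and 11.96% KO-only, both below those of the whole lists. By gene, 2 of 9 had more KO-only peaks (22.9% of all 21887 protein-coding genes), 4 of 9 had more WT-only peaks (46.6% of all genes) and 3 had equal numbers. The median difference per gene was 0, as it was over all protein-coding genes, and the shares of members in each direction were near those of all genes.

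**Figure D1:**
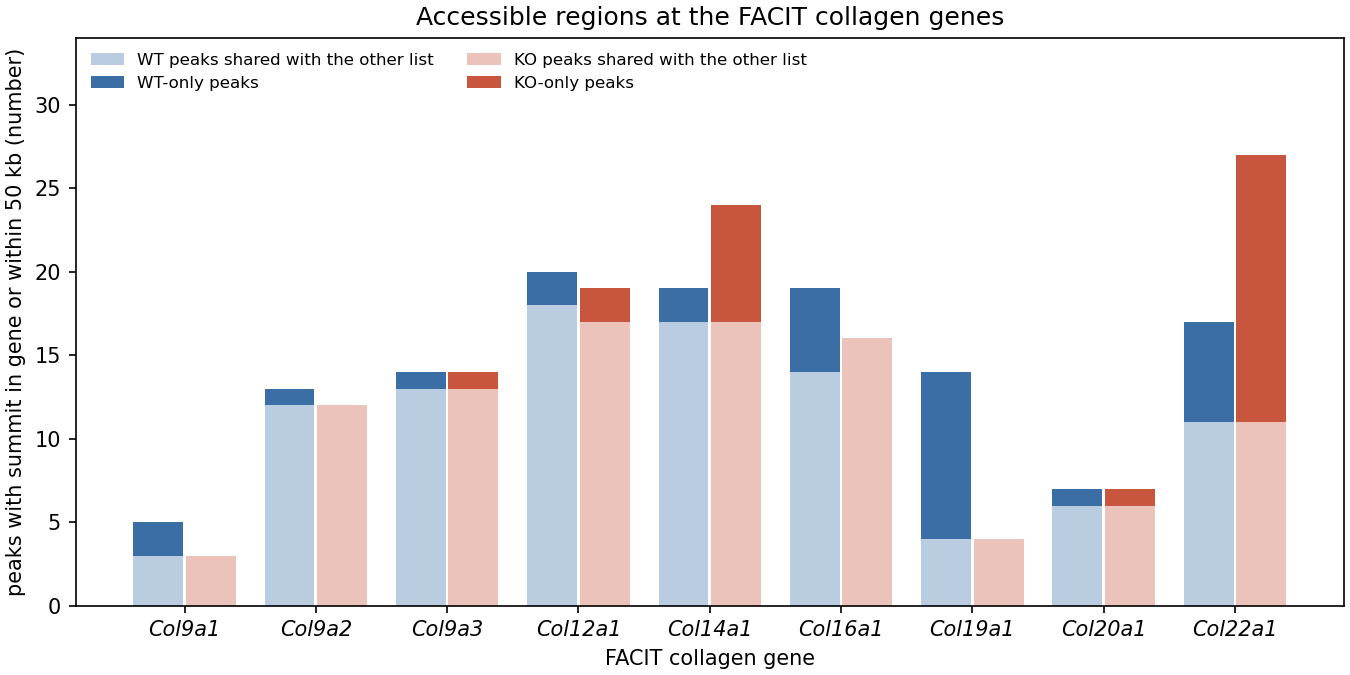
Number of WT (blue) and KO (red) peaks at each FACIT collagen gene (y axis), with shared peaks in pale and genotype-only peaks in full colour. Col22a1 had 27 KO against 17 WT peaks and Col19a1 had 4 KO against 14 WT peaks, while Col9a3 and Col20a1 had equal numbers.

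Genotype-only peaks at these genes ranked low in signal, as such peaks did in the lists as a whole. Of the 29 WT-only peaks, 18 lay in the body of a member gene, 9 in a flank and 2 within 1 kb of a gene end. Of the 27 KO-only peaks, 19 lay in a gene body, 8 in a flank and 0 at a gene end. These places were not counted for shared peaks or for all peaks, so the split cannot be called particular to genotype-only peaks. WT-only peaks had a median signal percentile of 24.0, against 17.8 for all WT-only peaks, and KO-only peaks one of 18.3, against 16.5 for all KO-only peaks. Shared peaks of the same windows had medians of 62.2 and 57.3. In the upper 50% of their own list by signal stood 3 WT-only and 5 KO-only peaks, and all 5 of the latter were at Col22a1.

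Shared regions, formed by overlapping WT and KO peaks, had nearly the same summits in both lists. There were 95 of them, and the summits lay within 10 bp of each other in 51 and within 50 bp in 77. Their signal percentile was more than 10 points higher in KO in 14 regions (14.2% of all 81460 shared regions) and more than 10 points higher in WT in 24 (23.7% of all). These counts are close to the shares over all regions. The median difference, KO minus WT, was -3.13 points in the FACIT windows and -1.55 over all shared regions.

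**Figure D2:**
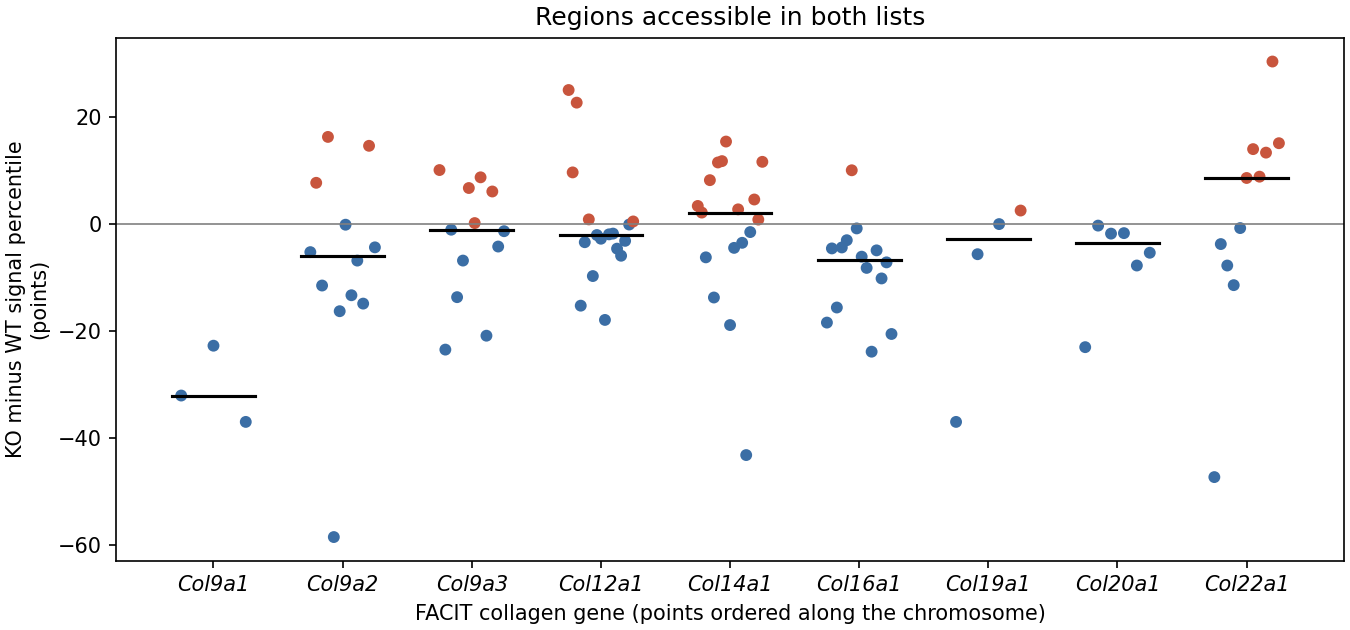
Difference in signal percentile, KO minus WT in points (y axis), for each region shared by both lists at each FACIT gene, with 1 point per region in chromosomal order, red where KO is higher and blue where WT is higher, and a black bar at the median of the gene. Col22a1 had the highest median, 8.61 points, with its first 5 regions below 0 and its other 6 above.

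Type XXII collagen is encoded by Col22a1, on chromosome 15 from 71795795 to 72150979, a span of 355 kb with no other protein-coding gene in its window. The gene held the WT-only peaks towards its low-coordinate end and the KO-only peaks towards its high-coordinate end. The 6 WT-only peaks lay 49.7 to 80.6 kb from the low-coordinate end. The 16 KO-only peaks lay 153 to 378 kb from it, and 4 of these were beyond the gene. The 2 groups of peaks did not overlap in position. The gene table gave no strand or exons for this gene, so its ends are named by coordinate.

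The same division appeared in the regions that both lists shared. In the first stretch of the gene, up to 100 kb from the low-coordinate end, all 5 shared regions had a higher percentile in WT, with differences, KO minus WT, of -47.3 to -0.745 points. From 100 to 300 kb all 5 shared regions were higher in KO, by 8.61 to 30.4 points. Beyond 300 kb the single shared region was higher in KO by 15.1 points. Of all 81460 shared regions, 48208 ranked higher in WT and 33251 in KO. The limits of 100 and 300 kb were set after the values were seen.

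**Figure D3:**
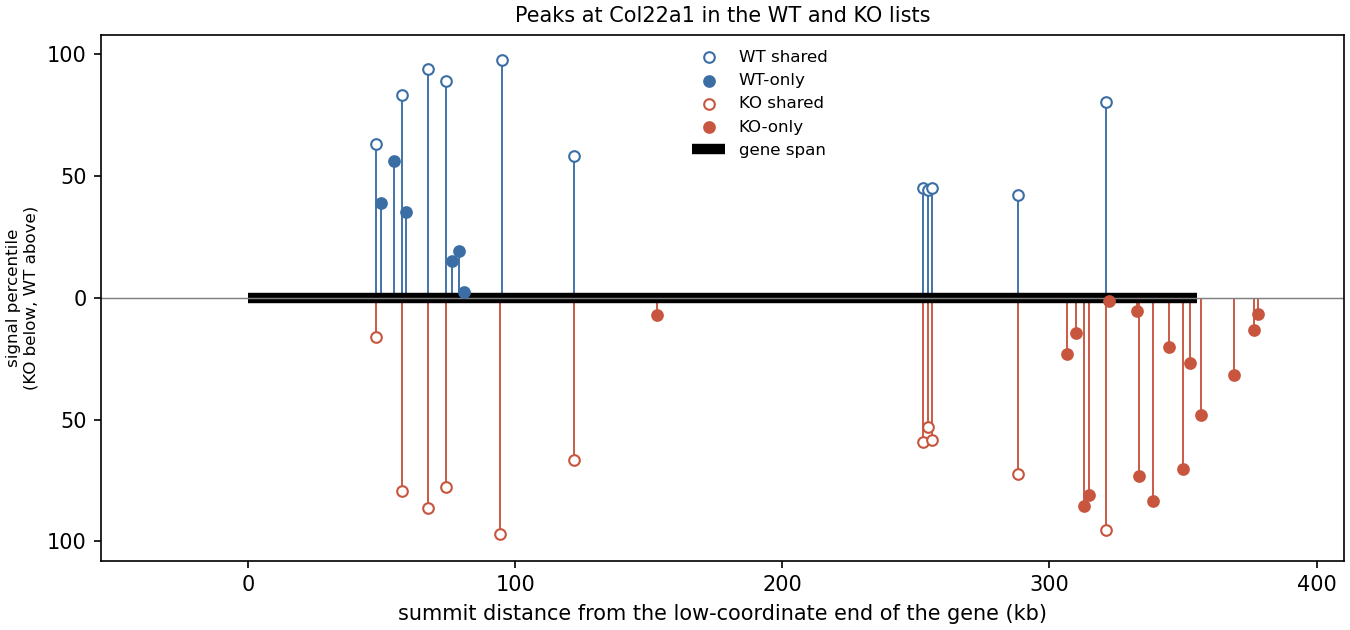
Every peak at Col22a1 by its distance from the low-coordinate end in kb (x axis) and its signal percentile within its own list (y axis, WT upward and KO downward), with filled points for genotype-only peaks, open points for shared peaks and a black bar for the gene. Filled WT points cluster between 49.7 and 80.6 kb and filled KO points between 307 and 378 kb, with a single one at 153 kb.

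Individual regions of Col22a1 show the size of these differences. The strongest region of the gene, 95.0 kb from its low-coordinate end, was nearly equal, at percentile 97.8 in WT (71889196 to 71891195) and 97.1 in KO (71889413 to 71891195). The region at 48.0 kb was a peak of 393 bp at percentile 63.2 in WT and of 248 bp at percentile 15.9 in KO. On the other side, the region at 288 kb measured 212 bp at percentile 42.0 in WT and 662 bp at percentile 72.4 in KO, with the summit at the same base. The region at 321 kb measured 839 bp at percentile 80.4 in WT and 1606 bp at percentile 95.5 in KO, again with the same summit. Of these regions, those at 288 and 321 kb were wider and ranked higher in the KO list, and the one at 48.0 kb in the WT list.

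The strongest KO-only peaks of the family all lay in the last stretch of Col22a1. The first ran from 72107842 to 72109414, 313 kb from the low-coordinate end, at percentile 85.5 with a −log10 p of 14.7 at the summit. A peak from 72134108 to 72135453 stood at percentile 83.4 with a −log10 p of 17.0, and one from 72110228 to 72111090 at percentile 81.0 with 15.7. The others of the upper 50% ran from 72128936 to 72129565 at percentile 73.2 and from 72145374 to 72145923 at percentile 70.2. Among all KO peaks of the upper 50%, 2.41% were KO-only. The remaining 11 KO-only peaks of the gene were weaker, at percentiles of 1.41 to 48.0. The single WT-only peak of the upper 50% ran from 71849864 to 71850746 at percentile 56.1 (3.49% of all WT peaks of the upper 50% were WT-only), and the other 5 stood between 2.34 and 38.9. The nearest KO-only peaks to the high-coordinate end lay on either side of it, from 72148266 to 72148561 inside the gene and from 72152380 to 72152651 beyond it, and no peak of either list came within 1 kb of either end.

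Counts at Col22a1 depended on how weak peaks were treated, while KO-only peaks outnumbered WT-only peaks under each of 8 alternatives. In the upper 50% by signal 5 were KO-only and 1 was WT-only. When peaks of both lists had to reach a stricter summit p (a −log10 p of at least 10.2) and were compared again, the numbers were 6 and 1. Of these, 5 KO-only peaks were KO-only in the first count, while 1 KO-only peak and the WT-only peak came from regions shared there, whose peak in the opposite list fell under the limit. None of the 6 WT-only peaks of the first count reached that limit. In lists of equal length the numbers were 8 and 4, of which 8 and 3 were genotype-only in the first count.

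Chromosome 15 around Col22a1 showed the same change of direction outside the gene. In the 1 Mb below the window there were 30 WT and 24 KO peaks, of which 8 were WT-only and 1 was KO-only. In the 1 Mb above it there were 36 WT and 51 KO peaks, of which 2 were WT-only and 15 KO-only. The 100 kb steps from 1500 kb below the low-coordinate end up to 100 kb inside the gene were summed. There, 22 of 49 WT peaks were WT-only and 1 of 29 KO peaks KO-only. The stretch from 100 to 800 kb runs past the gene and was chosen after its values were seen. In it 28 of 38 KO peaks were KO-only and 0 of 10 WT peaks WT-only. The nearest gene on the low side, Fam135b, had 7 WT-only and 0 KO-only peaks in its window, and Kcnk9, a potassium channel gene on the high side, had 0 and 3. In the 10 Mb block that holds Col22a1, KO had 107% of the WT peak number, against 99.5% on chromosome 15 as a whole. In that block 91 of 824 WT peaks were WT-only and 163 of 884 KO peaks KO-only. Over the whole lists the shares were 20.4% and 13.4%. The difference at the gene and that of its region cannot be told apart.

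**Figure D4:**
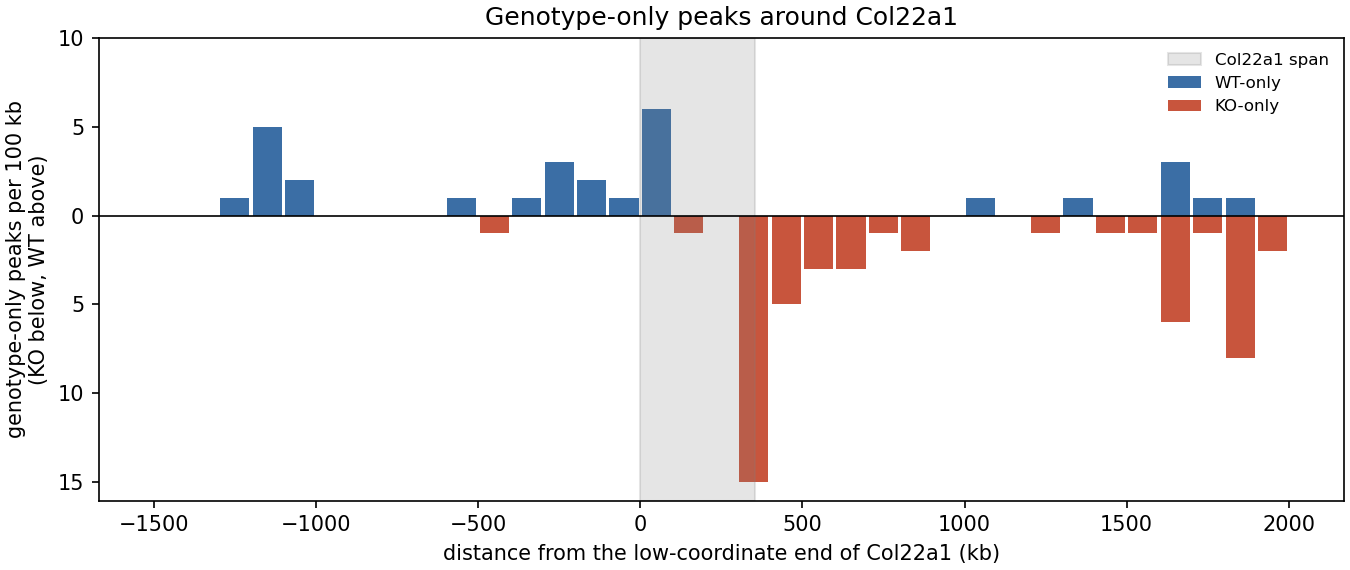
Number of WT-only (blue, upward) and KO-only (red, downward) peaks in steps of 100 kb (y axis) by distance from the low-coordinate end of Col22a1 in kb (x axis), with the gene in grey. The step at 300 kb holds 15 KO-only and 0 WT-only peaks and the step at 0 kb holds 6 WT-only and 0 KO-only peaks.

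Col22a1 had 35.3% of its WT peaks WT-only and 59.3% of its KO peaks KO-only, and genes were ranked by their distance from it in these 2 shares. Among 1687 genes with at least 20 peaks in each list, a minimum that Col22a1 with its 17 WT peaks does not meet itself, the closest was Negr1, an adhesion molecule gene on chromosome 3, with 19.0% and 43.8%, at a distance of 22.5 points. Next came Rbfox1, a splicing regulator gene (29.2% and 33.3%), Ccbe1 (20.8% and 35.7%), Sorcs2 (23.8% and 31.8%) and Iqsec1 (10.0% and 43.3%), at distances of 26.6 to 29.9 points. With the minimum lowered to 17 peaks in each list, a choice made after the data were seen, 3044 genes were compared and the closest was Adamts12, a metalloprotease gene that also lies on chromosome 15, with 16.7% and 53.6% at 19.5 points. Genes with fewer peaks were not compared, and the likeness was taken over 1 list per genotype.

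Types XII and XIV, the FACIT collagens of dermal type I fibrils, had different patterns. Col12a1, on chromosome 9 from 79598987 to 79721141, had 20 WT and 19 KO peaks, with 2 WT-only and 2 KO-only peaks at percentiles of 14.6 or less. Of its 17 shared regions, 13 differed by at most 10 points. The strongest region inside the gene lay near the high-coordinate end, from 79716986 to 79719336 in WT at percentile 97.3 and from 79716986 to 79719257 in KO at percentile 92.8. In the KO list the strongest peak of the window lay beyond that end, with its summit inside the neighbouring gene Cox7a2. It ran from 79759316 to 79760576 at percentile 94.7, over a WT peak at percentile 94.8. At the high-coordinate end of Col12a1 itself a peak stood at percentile 52.1 in WT and 46.2 in KO. The largest differences in favour of KO were 25.1 points at a region 49.8 kb below the gene and 22.7 points at a region 10.0 kb inside it, where 1 KO peak of 1149 bp at percentile 72.0 covered 2 WT peaks. Those were 266 bp wide at percentile 49.3 and 630 bp wide at percentile 28.8, and the 22.7 points are taken against the first. Since signal grows with width, the difference sets a single KO peak against a part of a divided WT region. Col12a1 thus had about as many peaks in the 2 lists, at nearly the same ranks.

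Col14a1, also on chromosome 15, from 55307644 to 55520803, had 19 WT and 24 KO peaks, of which 2 were WT-only and 7 KO-only. The KO-only peaks were weak, at percentiles of 3.35 to 40.4, and 5 of them lay in the gene body, 39.7 to 142 kb from its low-coordinate end. That stretch held 2 regions shared by both lists and no WT-only peak. The strongest KO-only peak ran from 55347234 to 55347500. A WT-only peak from 55308063 to 55308441, at percentile 6.01, lay within 1 kb of the low-coordinate end. A shared peak beside that end stood at percentile 75.6 in WT and 69.4 in KO. In the upper 50% by signal there were 0 KO-only and 0 WT-only peaks. In its 10 Mb block KO had 103% of the WT peak number, against 99.5% on chromosome 15 as a whole. In that block 97 of 594 WT peaks were WT-only and 132 of 612 KO peaks KO-only.

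**Figure D5:**
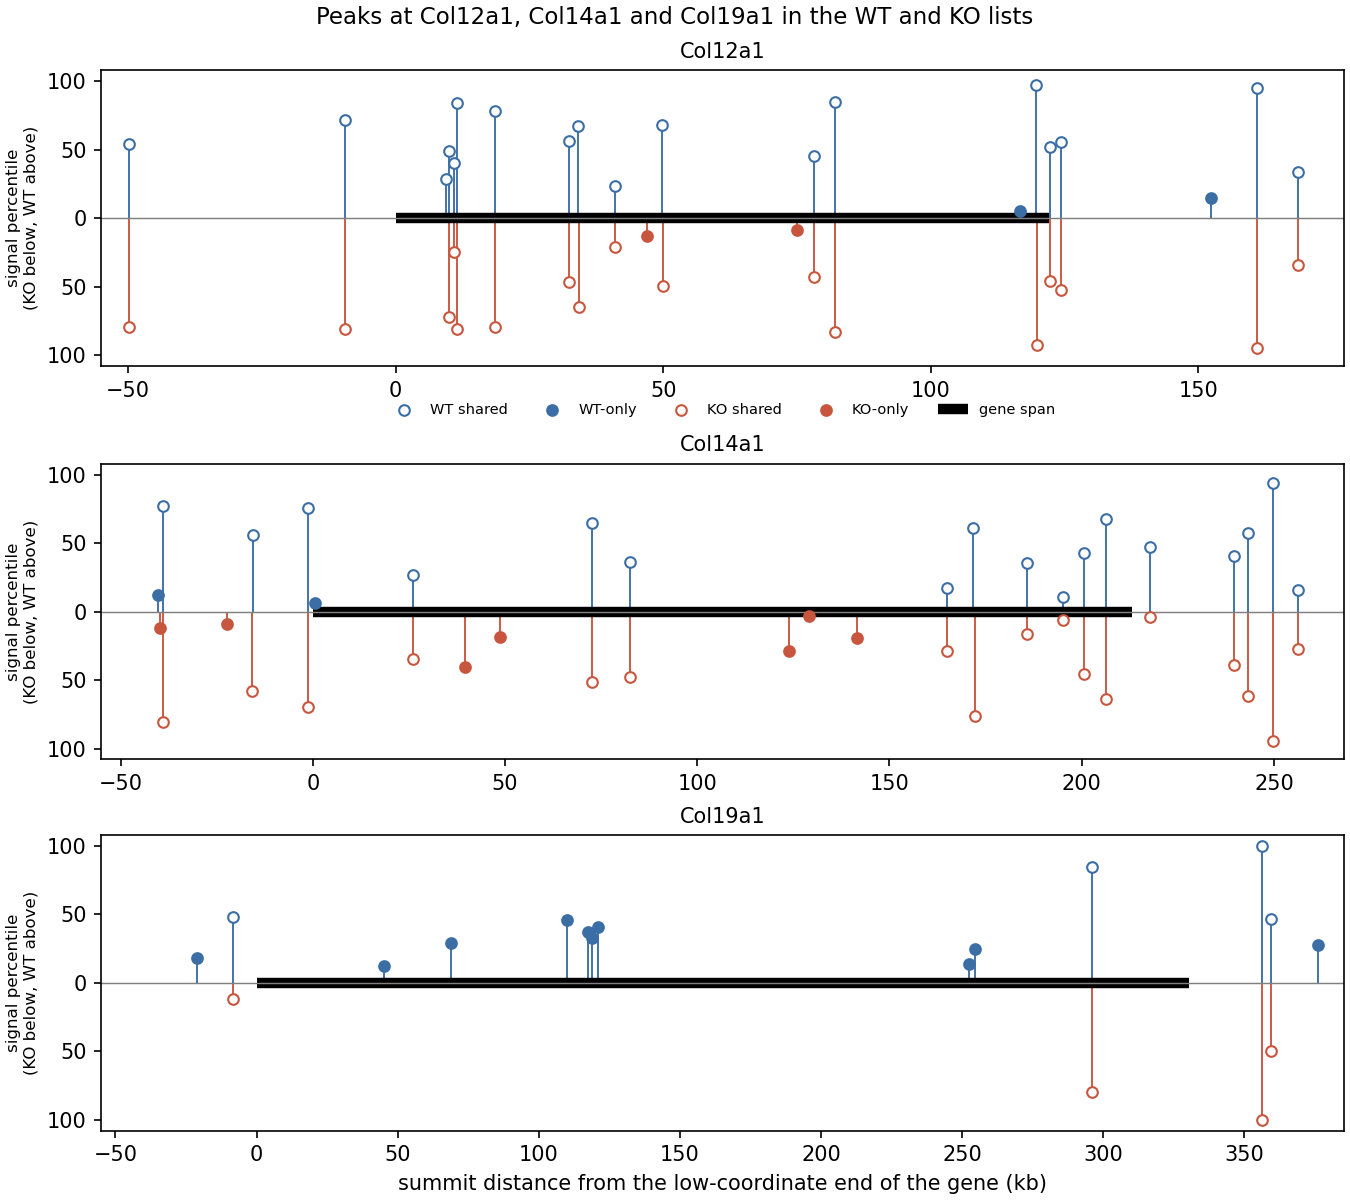
Peaks at Col12a1, Col14a1 and Col19a1 by distance of the summit from the low-coordinate end in kb (x axis) and signal percentile (y axis, WT upward in blue and KO downward in red), with filled points for genotype-only and open points for shared peaks. Col12a1 has 2 filled points per list, Col14a1 has 7 filled KO points and Col19a1 has 10 filled WT points and 0 filled KO points.

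Col16a1 encodes type XVI collagen, a minor collagen of dermal matrix, and was the most densely open member, with 13.6 peaks per 100 kb of gene span in both lists. It lies on chromosome 4 from 130047817 to 130099277. There were 19 WT and 16 KO peaks, with 5 WT-only and 0 KO-only peaks. The WT-only peaks of highest signal lay beyond the high-coordinate end, from 130102068 to 130102920 at percentile 61.5 and, inside the neighbouring gene Pef1, from 130108956 to 130109428 at percentile 67.4. Over all 81460 shared regions, 48208 had a lower percentile in KO than in WT, with a median difference of -1.55 points. At Col16a1, 13 of 14 shared regions had a lower percentile in KO, with a median difference of -6.62 points. The 2 strongest were nearly equal, 10.6 kb below the gene (98.7 in WT and 94.1 in KO) and 2.73 kb inside it (97.3 and 94.3). In its 10 Mb block KO had 87.5% of the WT peak number, against 85.5% on chromosome 4 as a whole. The lower KO count was thus not particular to the gene or its block.

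The start of Col16a1 was open in both lists and is shown because it is the only promoter window in the RefSeq table (GRCm38.p6) for these genes that a peak overlapped. That table matched 5 of 9 members with 6 windows of 300 bases, from 250 bases before to 50 after a start. Col9a3, Col12a1, Col14a1 and Col22a1 were not matched. The peak over the Col16a1 start ran from 130047266 to 130048448 in WT (percentile 86.2) and from 130047268 to 130048448 in KO (percentile 81.9), with summits at 130047899 and 130047881. Capitals mark matches, on either strand, to the CCAAT box, which is spelled by its name, and to the GC box, searched as GGGCGG, and the windows of Col9a2 and Col19a1, where neither list had a peak, are given for comparison.
Col16a1, chr4:130047590-130047889, plus strand: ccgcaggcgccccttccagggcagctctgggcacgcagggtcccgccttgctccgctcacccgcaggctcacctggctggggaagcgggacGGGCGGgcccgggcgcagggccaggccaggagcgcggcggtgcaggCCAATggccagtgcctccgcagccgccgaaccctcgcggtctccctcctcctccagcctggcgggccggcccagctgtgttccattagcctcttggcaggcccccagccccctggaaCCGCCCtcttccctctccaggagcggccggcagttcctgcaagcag
Col9a2, chr4:121039316-121039615, plus strand: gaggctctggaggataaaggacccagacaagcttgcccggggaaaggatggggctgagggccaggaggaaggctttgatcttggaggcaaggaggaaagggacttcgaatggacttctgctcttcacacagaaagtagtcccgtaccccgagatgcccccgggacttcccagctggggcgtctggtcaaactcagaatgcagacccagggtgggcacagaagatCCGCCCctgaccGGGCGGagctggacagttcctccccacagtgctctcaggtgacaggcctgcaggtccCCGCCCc
Col19a1, chr1:24587388-24587687, minus strand: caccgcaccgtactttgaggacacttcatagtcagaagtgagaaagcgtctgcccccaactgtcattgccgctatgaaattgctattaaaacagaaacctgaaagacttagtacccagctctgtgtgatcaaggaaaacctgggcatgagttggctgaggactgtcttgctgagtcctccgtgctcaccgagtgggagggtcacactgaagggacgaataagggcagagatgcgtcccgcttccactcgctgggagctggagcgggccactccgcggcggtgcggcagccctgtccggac

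Base composition differed among these windows. The Col16a1 window was 74.3% G and C with 24 CpG dinucleotides, against 61.7% and 10 at Col9a2, 56.3% and 16 at Col19a1, and medians of 52.7% and 7 over 32851 windows of the table. The Col16a1 window held a CCAAT box at -113 and GC boxes at -159 and 5, counted from the start. Col9a2 held GC boxes at -26, -14 and 44. The Col19a1 window held no match to any of 7 motifs searched on both strands. Of all windows in the table, 37.4% held the CCAAT box and 35.7% the GC box. The TATA box, searched as TATAAA, was in 13.6% of windows. The AP-1 motif, searched as TGANTCA, was in 7.81%, and the TEAD motif, searched as GGAATG, in 14.7%. The RUNX motif, searched as TGTGGT, was in 16.8%, and the Sox motif, searched as ACAAAG, in 18.7%. The Col20a1 window held 1 TEAD and 1 Sox match, and of the 2 Col9a1 windows 1 held a CCAAT box and the other none. A match is a description of letters only.

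Col19a1 and Col9a1 are neighbours on chromosome 1, so their windows share peaks, and both had more WT than KO peaks. Col19a1 encodes type XIX collagen, a rare collagen found near basement membranes, and spans 330.2 kb from 24257683 to 24587922. It had 14 WT and 4 KO peaks, with 10 WT-only and 0 KO-only peaks. Inside the gene there were 9 WT peaks and 1 KO peak. Of 8 WT-only peaks in the gene body, 4 lay together from 110 to 121 kb from the low-coordinate end, at percentiles of 33.0 to 46.0, and a pair lay at 253 and 255 kb at percentiles of 13.6 and 24.7. No WT-only peak at Col19a1 was in the upper 50% by signal, and 0 of the 10 reached the stricter summit p. The 2 WT-only peaks counted under that limit came from shared regions whose KO peak fell under it. The region that both lists had inside the gene, from 24553461 to 24554065 in WT, stood at percentile 85.0 in WT and 79.3 in KO. Most of the accessible regions that WT had in this long gene were therefore not called in KO.

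Col9a1, which encodes the first chain of cartilage type IX collagen, lies from 24177589 to 24252738 and had 5 WT and 3 KO peaks, with 2 WT-only and 0 KO-only peaks. All 3 of its shared regions were lower in KO, with differences, KO minus WT, of -37.0 to -22.7 points. Among all 81460 shared regions, 48208 were lower in KO. The 10 Mb block of both genes had 151 WT and 98 KO peaks (64.9%), with 57 WT-only and 2 KO-only peaks, so the gene and its region cannot be told apart here either.

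The other 2 chains of type IX collagen had nearly equal peak numbers in the lists. Col9a2, on chromosome 4 from 121039566 to 121055325, had 13 WT and 12 KO peaks with 1 WT-only and 0 KO-only peaks, but only 1 peak of each list lay inside the gene, at percentiles of 22.7 and 15.9. The largest difference between shared regions of the whole family was found 15.4 kb below Col9a2, at percentile 72.6 in WT (121023927 to 121024475) and 14.1 in KO (121023965 to 121024403). Col9a3, on chromosome 2 from 180598102 to 180622192, had 14 peaks in each list with 1 WT-only and 1 KO-only peak. Its high-coordinate end, which lies near an end of Tcfl5, carried a weak shared peak at percentile 25.8 in WT and 21.6 in KO. The strongest region inside Col9a3, 2.92 kb from the low-coordinate end, stood at 80.7 and 86.8. The 3 genes of this cartilage collagen thus differed in how open they were, Col9a1 having 2 WT peaks and 1 KO peak inside its 75.2 kb and Col9a3 having 3 and 2 inside 24.1 kb.

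Col20a1, the gene of type XX collagen on chromosome 2 from 180983323 to 181017545, had 7 peaks in each list. A WT-only peak from 180983058 to 180983552, at percentile 20.1, spanned its low-coordinate end, which lies within 1 kb of an end of Arfgap1 as well. Its 2 regions inside the gene were shared, at percentiles of 69.2 and 62.2 in WT and 67.6 and 54.5 in KO.

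Gene ends of the family were open in both lists at Col9a3, Col12a1, Col14a1 and Col16a1 (4 of 9, against 56.1% of all genes), in WT only at Col20a1 (1 of 9, against 2.47%) and in KO only at 0 of 9 (1.31% of all). The peak at the end of Col9a3 also lay within 1 kb of an end of Tcfl5, and that of Col20a1 within 1 kb of an end of Arfgap1. Col9a1, Col9a2, Col19a1 and Col22a1 had no peak within 1 kb of either end. Of the members with many genotype-only peaks, Col22a1 and Col19a1 thus had none at their ends.

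Genes that act with the FACIT collagens were taken from 4 lists chosen by function. Fibril collagens that FACITs bind had an excess of KO-only peaks at 6 of 8 genes and of WT-only peaks at 2, with a median difference of 1.5. Col1a2, a chain of type I collagen, showed 9 KO-only and 0 WT-only peaks, whereas Col1a1, its partner chain, had 1 and 5. Matrix proteins that bind FACIT collagens had more WT-only peaks at 10 of 11 genes and more KO-only peaks at 1, with a median of -2. Fmod, the gene of fibromodulin, a proteoglycan on fibrils, had 3 WT-only and 0 KO-only peaks. Enzymes and chaperones of collagen chains had 4 genes in each direction and 3 equal, with a median of 0. P4hb, a prolyl hydroxylase subunit, had 6 WT-only and 0 KO-only peaks, P3h1 had 4 and 0 and Plod2, a lysyl hydroxylase, had 3 and 0, while Plod3 had 0 and 4. Among cross-linking enzymes, Lox had 3 KO-only and 0 WT-only peaks, Loxl4 had 0 and 5 and Loxl1 had 1 and 5, and the other 2 were equal. The median over all protein-coding genes was 0, where 22.9% of genes leaned to KO-only and 46.6% to WT-only peaks. By peaks, WT-only shares were 8.66% at fibril collagens, 16.2% at binding proteins, 12.9% at enzymes and chaperones and 15.4% at cross-linking enzymes. All were below the 20.4% of all WT peaks. KO-only shares were 16.8%, 5.30%, 9.33% and 10.6% in the same order, against 13.4% of all KO peaks.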

How the data were processed

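ATAC-seq peak lists of 6 libraries were analysed, 3 WT and 3 Lap2alpha KO, grouped by their titles. The submitters' processing notes name Bowtie2 2.5.1 and Genrich, with deepTools 3.5.1, and the build GRCm38. For settings, the Tn5 shift and the pooling of libraries, the sources used here give nothing. The authors deposited for each peak a score held at 1000, a signal and the −log10 p and q of the summit. The score equalled 1000 times signal over width for 100% of peaks and was not used, nor was the q. The signal grows with width and was used only as a percentile within its list.

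Peaks were assigned by summit to 21887 RefSeq protein-coding genes (GRCm38.p6) with Python 3.11.15, numpy 2.4.6 and pandas 2.3.3. Overlap was tested on simulated data and against bedtools 2.31.1. Depth is unknown, and with 1 list per genotype no p was computed. The members, the lists and the naming rule (all members, their strongest and gene-end peaks, genes of each partner list differing by at least 3 peaks, up to 3 per direction, and the 5 genes most like Col22a1) were chosen with earlier results of these data known. Alternatives changed the overlap, the summit p, the signal, the list length and the window.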

Additional observations from a re-analysis of the deposited data

How the results depend on the processing

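The 27 KO-only and 29 WT-only peaks of the family, and the 16 and 6 of Col22a1, were recounted under 8 alternatives. With both lists held to a stricter summit p (a −log10 p of at least 10.2) and compared again, 9 peaks of the family were KO-only and 12 WT-only, with 6 and 1 at Col22a1. Of the family's, 4 and 10 were shared in the first count and lost their partner under the limit, so that 5 and 2 of the first 27 and 29 remained. In the upper 50% by signal the numbers were 5 and 3, and 5 and 1. In lists of equal length (73554 peaks each) the family had 17 and 19, of which 10 and 10 were genotype-only in the first count, and Col22a1 had 8 KO-only peaks. In the gene spans alone the family had 19 WT-only peaks. Other counts of these 4 stayed within 1.5 times. The difference over the family, KO-only minus WT-only, was -2 and turned to 2 in the upper 50% by signal and to 3 when peaks counted only at their nearest gene. It therefore has no stable direction, and the cause was not tested. The difference at Col22a1 kept its sign under all 8 alternatives, at 4 to 10 peaks. These recount the same 2 lists at a gene chosen with its counts known, so they are not independent support. Counting peaks only at their nearest gene left its 16 and 6 unchanged. No library could be left out. No paired analysis was possible because each list combines the 3 libraries of its genotype. Unknown depth limits statements on weak peaks.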

Other observations

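The strongest region in any of the 9 windows lay beyond the high-coordinate end of Col19a1, on chromosome 1 from 24611493 to 24616222. It had the same start and end in both lists, a width of 4730 bp and a percentile of 99.99 in each. It covers the pseudogenes Gm10222 and Gm10925, and the gene table lists mt-Atp6, a mitochondrial gene name, among the synonyms of Gm10925. Its place in the window of Col19a1 adds 1 shared peak to each list.

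Col22a1 and Col14a1 lie on the same chromosome and were the only members where KO-only peaks outnumbered WT-only peaks. The 10 Mb blocks of these genes had 107% and 103% of the WT peak number in KO, against 64.9% to 93.1% in the blocks of the other members. Chromosome 15 as a whole had 99.5%, against 85.5% to 94.7% on the chromosomes of the other members. On chromosome 15, 813 of 5220 WT peaks were WT-only and 903 of 5194 KO peaks KO-only. The whole lists held 106132 WT and 98072 KO peaks.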
